A study of Mus musculus with 15 samples.

Results

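The genes described here are those whose RNA differed between the livers of CCl4 + EV and CCl4 mice and that belong to none of 4 gene lists, namely cell division and DNA replication, extracellular matrix and its proteases, heat shock proteins and chaperones, and cytochromes P450. Only genes called by the authors in CCl4 against oil are in the deposited table, 374 of them in those lists and 3137 outside. In limma on log2(normalized count + 1), 181 genes of the table (5.16%) were lower and 18 (0.513%) were higher with CCl4 + EV than with CCl4 at an adjusted p under 0.05. Of these 199 genes 133 are in the 4 lists, 131 lower and 2 higher, and 66 remain, 50 lower and 16 higher. Outside the lists 1.59% of genes were lower and 0.51% higher, against 35% lower and 0.535% higher inside them. At an unadjusted p under 0.05 in limma, 207 genes outside the lists were lower and 124 higher. By edgeR 69 genes outside were lower and 17 higher, and by DESeq2 90 and 38.

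The series has 15 male Swiss Webster mice, 4 to 5 weeks old at the start, in 5 groups of 3 called untreated, oil, oil + EV, CCl4 and CCl4 + EV. For 5 weeks both CCl4 groups were injected intraperitoneally 3 times weekly with 4 μl CCl4 plus 26 μl corn oil for each 25 g of body weight, and both oil groups with 30 μl corn oil for each 25 g. During the final 2 weeks both EV groups were given extracellular vesicles (EVs), membrane-bound particles shed by cells, at 80 μg for each 25 g, 3 times weekly, on days alternating with the other injections. The EVs came from AML12, a single mouse hepatocyte line that carries a human growth factor transgene, and mice were killed 36 h after their final dose of CCl4 or oil.

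CCl4 is turned into a radical by cytochrome P450 enzymes of hepatocytes around the central vein, and repeated doses bring cycles of hepatocyte death, repair and scarring. Hepatocytes meet such an injury with glutathione transferases, aldo-keto reductases and other enzymes that take up reactive products, many of them under the transcription factor NRF2, while macrophages clear dead cells and mesenchymal cells secrete matrix and signalling proteins. EVs carry proteins, lipids and RNA from the cell that sheds them to cells that take them up.

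Values are normalized counts, that is, reads per gene divided by a size factor of the library. Over the genes of the table the libraries held 6106856 to 7886582 reads in CCl4 mice and 6962074 to 7747329 in CCl4 + EV mice, and 6258733 to 11055679 in the other groups. The CCl4 libraries served both to choose the genes of the table and as the baseline of the comparison, and genes that the authors did not call between CCl4 and oil are not analysed here. The tissue is whole liver, and fewer cells of a type and less RNA per cell cannot be told apart. The 8 hepatocyte markers of the table summed to 507928 to 540579 in CCl4 mice and 430462 to 503987 in CCl4 + EV mice, with none of the 8 past the threshold (limma; 1 at an unadjusted p under 0.05; 0 by edgeR and DESeq2). Alb, Ttr and Hnf4a, which define hepatocytes, are not analysed here.

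Of the 50 genes that fell, 36 had been induced by CCl4 and 14 suppressed, and of the 16 that rose, 4 had been induced and 12 suppressed. Of all 3137 genes outside the 4 lists, 1411 had been induced and 1726 suppressed. The CCl4 mice set these directions and are also the baseline for EV, so the 2 changes of a gene are not independent. The log2 fold changes of the 50 ran from -0.48 to -4.67 with a median of -0.94, and those of the 16 from 0.46 to 2.30 with a median of 1.20, beside a median of -0.06 over all genes of the table. The values of the 3 CCl4 and 3 CCl4 + EV mice did not overlap in 49 of the 50 and in all 16, where the choice by a call between these mice nearly fixes it. Of all genes of the table, 20% were lower and 8% higher without overlap. The exception was Gm11844, an antisense transcript, with 17.2, 58.3 and 56.5 in CCl4 mice and 18.9, 5.5 and 8.2 in CCl4 + EV mice. Among the 36 induced genes that fell, the CCl4 + EV mice overlapped the oil mice in 24, stayed above them in 8 and lay below them in 4, which were Selenoh, Naalad2, Papss2 and Kpna2. In all 14 suppressed genes that fell, the CCl4 + EV mice lay below all oil mice. All 14 also had a negative log2 fold change in oil + EV against oil, from -0.23 (Gbe1) to -0.73 (Cavin2).

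**Figure D1:**
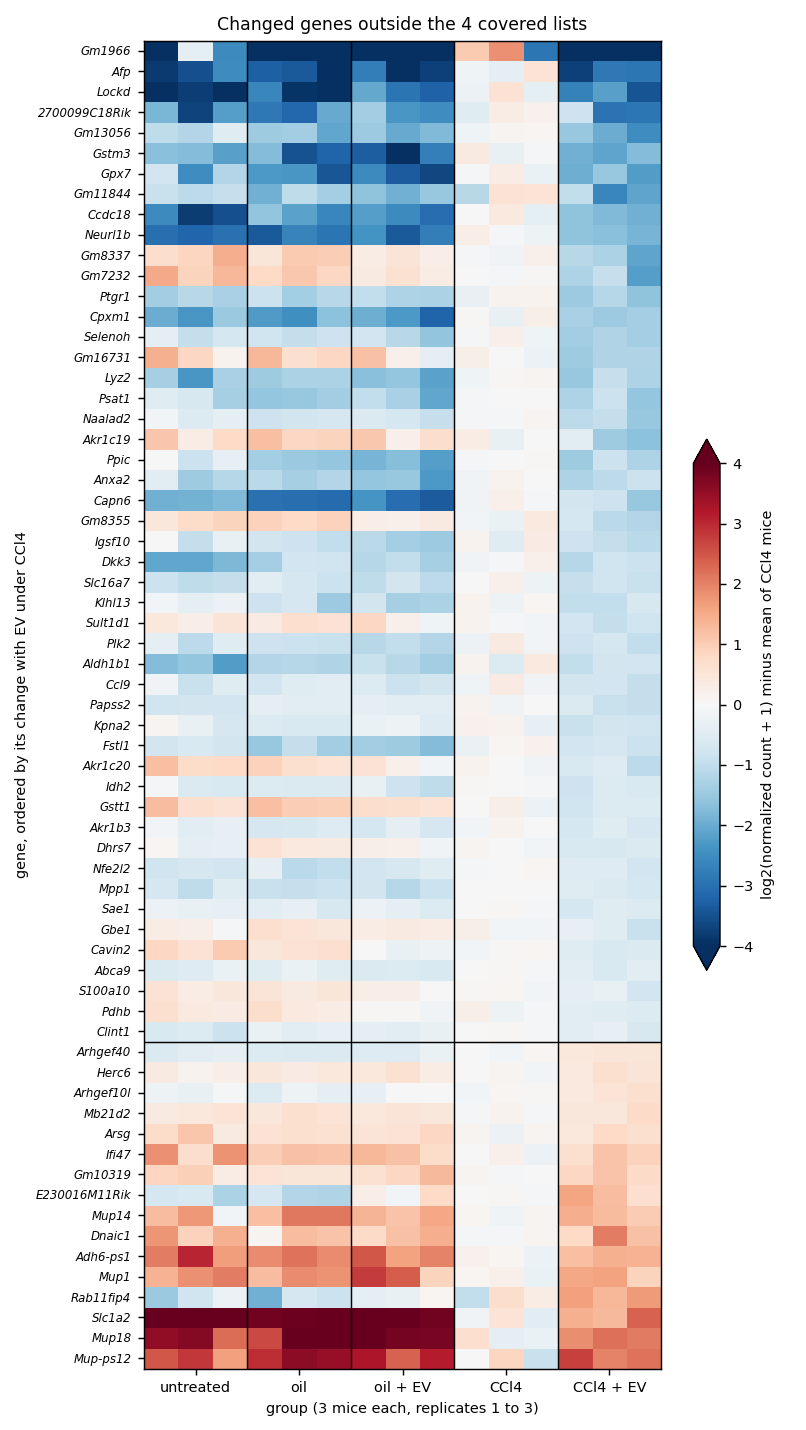
Changed genes outside the 4 lists in all 15 mice. Each row is 1 of 65 of the 66 genes and each column 1 mouse, and colour gives log2(normalized count + 1) minus the mean of the CCl4 mice (red higher, blue lower, ends of the scale at 4 and -4). The 49 genes above the line fell and the 16 below it rose with EV, and the 13 falling genes that are red in the oil columns are those CCl4 had already suppressed.

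A core of 14 genes passed the threshold the same way under all 18 alternative fits. The 11 that fell were Afp, Gstm3, Neurl1b, Ptgr1, Selenoh, Lyz2, Naalad2, Ppic, Slc16a7, Papss2 and Sae1, and the 3 that rose were Slc1a2, the pseudogene Mup-ps12 and the transcribed pseudogene Gm10319. The other 52 lost the call when at least 1 mouse was left out. Of the 50 falls, 24, 22 and 28 kept it without CCl4 replicates 1, 2 and 3, and 29, 27 and 15 without CCl4 + EV replicates 1, 2 and 3. Of the 16 rises, 5, 7 and 5 kept it without the CCl4 replicates in the same order, and 11, 5 and 5 without the CCl4 + EV replicates. With the replicate number as a block in the fit of the 6 compared libraries the falls numbered 88 and the rises 37.

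**Figure D2:**
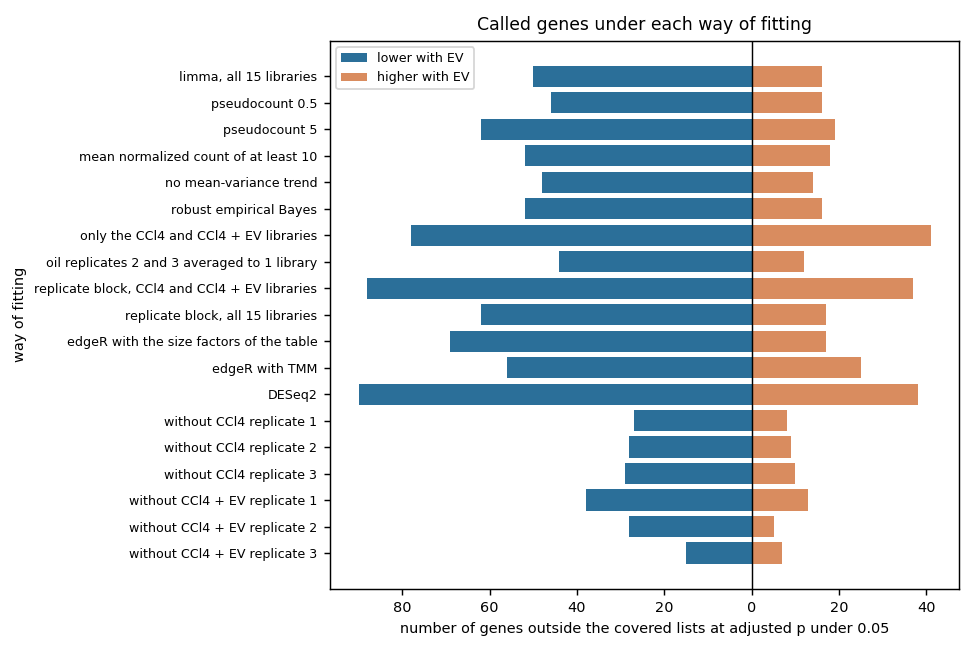
Number of called genes outside the 4 lists under each way of fitting. Bars to the left count genes lower and bars to the right genes higher with CCl4 + EV at an adjusted p under 0.05. The falls range from 15 without CCl4 + EV replicate 3 to 90 by DESeq2, and the rises from 5 to 41.

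Among lists of named genes, detoxification and redox enzymes held the most falls. Of 59 listed detoxifying and antioxidant genes outside the cytochromes, 10 fell and 1 rose, 48 had a log2 fold change below 0 and the median was -0.27. Over all genes outside the 4 lists 1.59% fell and 0.51% rose, and the median was -0.04. CCl4 had induced 17 of the 59 and suppressed the rest, and the 10 falls held genes of both kinds. The 10 were Gpx7, Gstm3, Aldh1b1, Ptgr1, Nfe2l2, Akr1b3, Sult1d1, Akr1c20, Akr1c19 and Gstt1, and the 1 that rose was Adh6-ps1, a transcribed pseudogene of the alcohol dehydrogenase family. Cytochromes and detoxification are among the gene groups that the study itself picked from these libraries, so the list is not independent of them. Prdx1, a peroxiredoxin and one of the most abundant members, was at 17391 ± 1821 (SD, n = 3) with CCl4 and 15511 ± 1712 with CCl4 + EV (-0.17, adjusted p = 0.692).

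Gstm3, a glutathione S-transferase of the mu class, was at 1728, 1091 and 1256 in the 3 CCl4 mice and at 355, 307 and 398 in the 3 CCl4 + EV mice. The lowest CCl4 mouse held more than the highest CCl4 + EV mouse, and the CCl4 + EV mice overlapped the oil mice at 401, 117 and 145. The mean with EV was 26% of that with CCl4 (log2 fold change -1.92, standard error 0.38, limma adjusted p = 0.00582). Ptgr1, an NADPH-dependent reductase that inactivates leukotriene B4 and reactive alkenals, was at 196, 265 and 268 in CCl4 mice and 86.4, 107 and 78.4 in CCl4 + EV mice. Its fall (log2 fold change -1.41, standard error 0.20, limma adjusted p = 0.000822) brought it to a range that overlapped the oil mice at 133, 93.5 and 112. Reads of mu class transferases, whose sequences are close to each other, may be split among them.

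Nfe2l2, which encodes NRF2, the transcription factor that drives many antioxidant and conjugating enzymes, fell as well. It was at 2259, 2399.8 and 2538 with CCl4 and 1685, 1666 and 1403 with CCl4 + EV, and no CCl4 + EV mouse reached the lowest CCl4 mouse (log2 fold change -0.60, standard error 0.15, limma adjusted p = 0.0287). That call was lost whichever of the 6 mice was left out, with an adjusted p of up to 0.147 without CCl4 + EV replicate 3. Gpx7, a thiol peroxidase of the endoplasmic reticulum, was at 109, 139 and 92.6 against 28, 38.4 and 22.9, and the CCl4 + EV mice stayed above the oil range of 22.2, 21.7 and 9.5 (log2 fold change -1.91, standard error 0.45, limma adjusted p = 0.0186, and 0.0943 without CCl4 + EV replicate 3). Aldh1b1, a mitochondrial aldehyde dehydrogenase, had a wide spread in CCl4 mice, 5462, 3399 and 6460, and a narrow one in CCl4 + EV mice, 2469.7, 2996 and 2871 (log2 fold change -0.83, standard error 0.21, limma adjusted p = 0.0282, 0.14 without CCl4 replicate 3 and 0.0723 with the replicate block in the 6 libraries). Akr1b3, the mouse aldose reductase, fell from 424 ± 39.5 to 276 ± 23.7, beside 278 ± 17.7 in oil mice (log2 fold change -0.62, standard error 0.14, limma adjusted p = 0.0172, and 0.0905 without CCl4 replicate 2).

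Papss2 and Sult1d1, set side by side after their values were seen, had been moved in opposite directions by CCl4. Papss2 makes the sulfate donor PAPS, and Sult1d1 is a sulfotransferase that uses it on catecholamines and small phenols. Papss2 was at 4989, 4112 and 4448 in CCl4 mice and 3016, 2403 and 2312 in CCl4 + EV mice, and each CCl4 + EV mouse also lay below the oil mice at 3502, 3294 and 3325. Its adjusted p was the smallest of the 66 genes (log2 fold change -0.81, standard error 0.11, limma adjusted p = 0.000675). Sult1d1, which was at 4417 ± 524 with oil, stood at 3335, 2972 and 2839 with CCl4 and 1779, 1579 and 1735 with CCl4 + EV (log2 fold change -0.84, standard error 0.19, limma adjusted p = 0.012, and 0.0622 without CCl4 replicate 1). In both genes the CCl4 + EV mice held the lowest values of the 9 oil, CCl4 and CCl4 + EV mice. The other sulfotransferases of the table, Sult2a8, Sult1b1 and Sult1c2, did not pass (limma adjusted p = 0.844, 0.514 and 0.949).

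Other reductases and transferases that CCl4 had suppressed fell further with EV under CCl4. In oil + EV against oil they were lower as well, though none passed the threshold. Those log2 fold changes were -0.32 for Akr1c19, -0.48 for Akr1c20, -0.40 for Gstt1 and -0.33 for Dhrs7. The aldo-keto reductases Akr1c19 and Akr1c20, neighbours on chromosome 13 with 234006 bases between them, reduce steroids and carbonyls. Akr1c19 went from 1348 ± 196 with oil to 685 ± 141 with CCl4 and 322 ± 152 with CCl4 + EV (log2 fold change -1.17, standard error 0.29, limma adjusted p = 0.0274, and 0.148 without CCl4 + EV replicate 3). Akr1c20 was at 2942 ± 410.4, 1795 ± 162 and 1102 ± 201 in the same order (log2 fold change -0.72, standard error 0.18, limma adjusted p = 0.0291, and 0.159 without CCl4 + EV replicate 3). In both genes the 3 CCl4 + EV mice were below every oil and CCl4 mouse, and reads of this gene family may be shared among close copies. Gstt1, a theta class glutathione transferase, fell to 63.9% of its CCl4 mean (-0.64, adjusted p = 0.0276, and 0.129 without CCl4 replicate 2) and Dhrs7, a short-chain dehydrogenase outside the list, to 65.4% (-0.61, adjusted p = 0.0248, and 0.115 without CCl4 replicate 1).

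**Figure D3:**
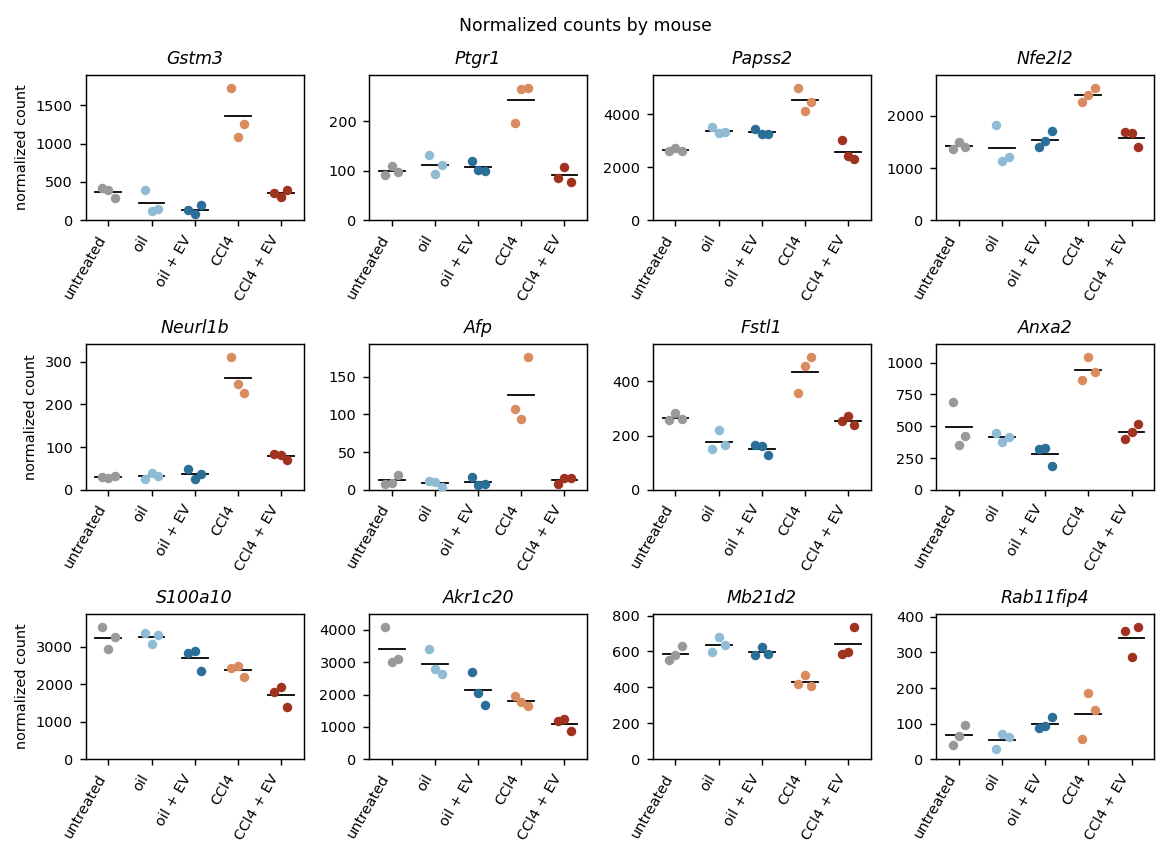
Normalized counts of 12 of the genes in each mouse. Points are mice, bars are means of 3 mice, and axes are linear from 0. In Gstm3, Ptgr1, Papss2, Nfe2l2, Neurl1b, Afp, Fstl1 and Anxa2 the 3 CCl4 mice are the highest of all 15, S100a10 and Akr1c20 step down from oil to CCl4 to CCl4 + EV, Mb21d2 overlaps the oil mice again with EV and Rab11fip4 is highest with CCl4 + EV.

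Afp, Lockd, Neurl1b and Kpna2 fell with EV under CCl4, did not pass under oil, and had a difference between the EV effects that itself passed the threshold. Afp encodes alpha-fetoprotein, an albumin-like protein of the fetal liver, Lockd is a long noncoding RNA next to the cell cycle inhibitor gene Cdkn1b, Neurl1b is a ubiquitin ligase of Notch ligands, and Kpna2 is an importin that carries proteins into the nucleus and is abundant in dividing cells. They are shown with their promoters because these 4 windows hold both letter patterns that are common in promoters of cell division genes, CCAAT and TTTGAA. Each sequence covers 250 bases before and 50 after the first gene start that RefSeq lists (GRCm38.p6), 5′ to 3′ on the gene's strand, with matches on either strand in capitals (each pattern or its reverse complement).
Afp (chr5:90490464-90490763, + strand): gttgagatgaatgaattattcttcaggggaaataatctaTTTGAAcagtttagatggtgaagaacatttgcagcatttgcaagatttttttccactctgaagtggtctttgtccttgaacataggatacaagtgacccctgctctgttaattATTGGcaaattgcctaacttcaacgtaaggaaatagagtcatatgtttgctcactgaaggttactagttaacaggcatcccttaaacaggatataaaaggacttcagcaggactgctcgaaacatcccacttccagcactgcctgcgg
Lockd (chr6:134928842-134929141, + strand): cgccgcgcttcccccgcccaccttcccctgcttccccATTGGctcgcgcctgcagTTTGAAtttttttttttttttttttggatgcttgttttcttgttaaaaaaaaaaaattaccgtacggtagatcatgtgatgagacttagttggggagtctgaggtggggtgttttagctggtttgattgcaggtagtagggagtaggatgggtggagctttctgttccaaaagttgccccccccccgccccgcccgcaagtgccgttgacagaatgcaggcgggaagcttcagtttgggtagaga
Neurl1b (chr17:26414609-26414908, + strand): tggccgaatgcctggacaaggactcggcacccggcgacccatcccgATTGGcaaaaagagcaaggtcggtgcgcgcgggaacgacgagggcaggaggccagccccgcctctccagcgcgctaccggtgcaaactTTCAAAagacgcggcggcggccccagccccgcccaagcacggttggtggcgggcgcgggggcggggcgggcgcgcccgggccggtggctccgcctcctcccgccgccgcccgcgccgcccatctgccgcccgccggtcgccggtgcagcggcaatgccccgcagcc
Kpna2 (chr11:106999476-106999775, - strand): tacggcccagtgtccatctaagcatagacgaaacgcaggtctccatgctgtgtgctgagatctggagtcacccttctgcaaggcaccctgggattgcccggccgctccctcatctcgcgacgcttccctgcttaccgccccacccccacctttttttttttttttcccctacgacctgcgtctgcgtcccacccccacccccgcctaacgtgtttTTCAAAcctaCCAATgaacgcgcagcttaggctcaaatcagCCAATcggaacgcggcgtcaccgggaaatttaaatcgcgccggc

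Of the 36 falling genes with a RefSeq promoter, TTTGAA was in 11 (30.6%) and CCAAT in 19 (52.8%), and 7 (19.4%) held both, the other 3 being Gm13056, Selenoh and Capn6. Of all 27025 promoters 18.1% held TTTGAA, 37.9% CCAAT and 7.12% both, and of the 2401 promoters of genes in the table the shares were 14.9%, 41.3% and 6.62%. Among 84 promoters of the called cell division genes the shares were 61.9%, 69% and 47.6%. Among the 12 rising genes with a promoter, TTTGAA was in 2 (16.7%), CCAAT in 4 (33.3%) and both in 0. The STAT pattern, TTC and GAA with 3 bases between them, was in 2 of the falling (5.56%) and 0 of the rising promoters, against 8.47% of all and 6.87% of the table, and the interferon response pattern, GAAA repeated after any 2 bases, in 5 (13.9%) and 0, against 3.49% of all and 3.5% of the table. These are letter matches in a short window and no more than a description.

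Neurl1b was at 310.4, 247 and 227 in CCl4 mice and 84.7, 81.5 and 70.3 in CCl4 + EV mice, beside 24.3, 40.2 and 33.3 with oil. The 3 CCl4 + EV mice lay between the other groups, below every CCl4 mouse and above every oil mouse (log2 fold change -1.71, standard error 0.27, limma adjusted p = 0.0013). Under oil the change with EV was 0.14 on the log2 scale, and the difference between the EV effects was -1.85 (standard error 0.38, limma adjusted p = 0.0206). Lockd was at 53.9, 96 and 49.7 in CCl4 mice and 9, 13.3 and 4.9 in CCl4 + EV mice, with 9.5, 3.3 and 2.4 in oil mice (log2 fold change -2.77, standard error 0.61, limma adjusted p = 0.0125, and 0.0785 without CCl4 + EV replicate 3). Kpna2 was at 1430.1, 1399.5 and 1018 with CCl4 and 690.2, 764 and 736 with CCl4 + EV, and all 3 of the latter were below the oil mice at 876, 823 and 830.3 (log2 fold change -0.80, standard error 0.17, limma adjusted p = 0.012, and 0.0672 without CCl4 replicate 1).

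Afp was at 107, 93.7 and 175 in CCl4 mice, 8.2, 15.7 and 15.5 in CCl4 + EV mice and 11.6, 10.9 and 3.6 in oil mice, so that the CCl4 + EV mice overlapped the oil mice (log2 fold change -3.16, standard error 0.50, limma adjusted p = 0.0013). It was the only one of 14 listed fetal liver, progenitor and bile duct markers past the threshold, and the median of the list was -0.08, close to that of all genes. All 14 had been induced by CCl4. Their summed counts were 3914 to 10721 in CCl4 mice and 3639 to 31218 in CCl4 + EV mice, and most of this spread was Lcn2, the acute phase protein lipocalin 2, at 1698, 7198 and 694 and 1004, 11221 and 27589 (1.73, adjusted p = 0.533). Replicates 2 and 3 of CCl4 + EV were the highest in Lcn2, and replicate 3 is also the library without which the fewest falls kept their call. Whether the 2 are related was not tested. Sox9, a transcription factor of bile duct and progenitor cells, was at 274, 264 and 193 with CCl4 and 312, 358 and 313 with CCl4 + EV (0.44, adjusted p = 0.317).

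Of 62 growth factors, cytokines and receptors 2 fell and none rose, and the list's median was -0.12. One of them was Fstl1, a follistatin-like glycoprotein that mesenchymal cells secrete, with 358, 457 and 489 in CCl4 mice and 253, 272 and 239 in CCl4 + EV mice, the latter still above the oil mice at 149, 221 and 165 (log2 fold change -0.76, standard error 0.17, limma adjusted p = 0.0153, and 0.0785 without CCl4 + EV replicate 3). The other genes of this paragraph that fell are in no list. Dkk3, a secreted member of the dickkopf family, went from 153 ± 18.7 to 79.3 ± 9.61 and was at 78.3 ± 16.7 with oil (-0.94, adjusted p = 0.0177, and 0.0834 without CCl4 replicate 3). Cpxm1, a secreted carboxypeptidase-like protein, went from 107 ± 19.1 to 40.2 ± 2.29 (-1.38, adjusted p = 0.0286, and 0.115 without CCl4 replicate 3). Igsf10, an immunoglobulin superfamily protein, went from 138 ± 37.3 to 69.5 ± 6.01 (-0.95, adjusted p = 0.0428, and 0.185 without CCl4 replicate 3; 0.0589 with the block in the 6 libraries). Capn6, a calpain without its catalytic cysteine, fell from 149 ± 18.8 to 74.5 ± 20.1 and stayed well above oil at 17.3 ± 0.656 (-1.02, adjusted p = 0.044, and 0.238 without CCl4 + EV replicate 3).

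Ppic and Naalad2, also in no list, passed in all alternatives. Ppic, the peptidyl-prolyl isomerase cyclophilin C, was at 214, 225 and 229 in CCl4 mice and 83.1, 123 and 94 in CCl4 + EV mice (log2 fold change -1.16, standard error 0.23, limma adjusted p = 0.00567). Naalad2, a membrane-bound glutamate carboxypeptidase, was at 93.9, 91.4 and 104 and 46.1, 49.4 and 32.7, and its CCl4 + EV values were below all oil mice at 53.8, 57.6 and 60.6 (log2 fold change -1.18, standard error 0.22, limma adjusted p = 0.00451). None of 12 stellate cell and myofibroblast markers passed the threshold in limma (2 at an unadjusted p under 0.05; 0 by edgeR and DESeq2), their median was -0.27, and their summed counts were 5533 to 5969 in CCl4 mice and 4531 to 5065 in CCl4 + EV mice. Pdgfrb, a receptor on stellate cells, was at 706, 818 and 814 with CCl4 and 697, 753 and 692 with CCl4 + EV (-0.12, adjusted p = 0.781). Acta2, Des and Lrat are not analysed here, no marker of the list was at 0, and the part of these cells in the falls was not tested.

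Of 13 monocyte, macrophage and Kupffer cell markers 2 fell and none rose in limma. At an unadjusted p under 0.05 it was 8, and 3 were lower by edgeR and 5 by DESeq2. Among the 3137 genes outside the 4 lists 207 were lower and 124 higher at that unadjusted p. There edgeR gave 69 lower and 17 higher, and DESeq2 90 and 38. Of the 13 markers 11 had been induced by CCl4. Their median was -0.69, the lowest of the lists outside the 4 with more than 1 gene. Lyz2, the lysozyme of macrophages and other myeloid cells, was at 3303, 3845 and 3932 with CCl4, 1276, 1931 and 1579 with CCl4 + EV and 1374, 1542 and 1536 in oil mice (log2 fold change -1.23, standard error 0.23, limma adjusted p = 0.00476). Ccl9, a chemokine of myeloid cells, was at 3194, 4473 and 3266, 2150.5, 2109 and 1870.3 and 2105, 2578 and 2607 in the same order (log2 fold change -0.82, standard error 0.17, limma adjusted p = 0.0105, and 0.06 without CCl4 replicate 2). In both genes the CCl4 + EV mice were below all CCl4 mice and overlapped the oil mice. Of the other abundant members of the list, the mannose receptor Mrc1 was at 2270.5, 2138 and 2117 with CCl4 and 1757, 1389 and 1585 with CCl4 + EV (-0.47, adjusted p = 0.0736). Sirpa, an inhibitory receptor of phagocytes, was at 1314, 1174 and 1416 and 1276, 1408 and 1473 (0.09, adjusted p = 0.931), so it overlapped between the groups.

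The 13 markers together summed to 12582 to 14217 in CCl4 mice, 8266 to 9130 in CCl4 + EV mice and 8868 to 9908 in oil mice. Without Lyz2 and Ccl9 the other 11 summed to 5898 to 6132, 4839 to 5090 and 5389 to 5788, so that the groups still did not overlap. Most members were lower, since 11 of the 13 had a log2 fold change below 0. In 8 of the 13 all CCl4 + EV mice lay below all CCl4 mice. Among all genes, 20% were lower and 8% higher without overlap. In summed counts the largest parts of the gap over the 11 came from Mrc1 and Gpnmb. Mrc1, which CCl4 had suppressed, had a mean of 2175 with CCl4 and 1577 with CCl4 + EV, and Gpnmb of 498 and 283. The members not below 0 were Acp5, at 1179 and 1184, and Sirpa, at 1302 and 1386. In uninjured liver the sums were lower with EV too. The oil + EV mice summed to 7689 to 8081 over the 13 and 4315 to 4837 over the 11, below all oil mice. Mrc1 changed by -0.46 with EV under oil and -0.47 under CCl4. None of the 13 was at 0, and the defining markers Adgre1, Cd68, Csf1r and Clec4f are not analysed here. Mpp1, a membrane scaffold protein of blood cells, fell from 691 ± 12 to 458 ± 33.6 (-0.59, adjusted p = 0.0245, and 0.122 without CCl4 + EV replicate 3). The part of myeloid cells in these falls was not tested. Of 8 endothelial markers none passed in limma (3 at an unadjusted p under 0.05; 1 each by edgeR and DESeq2), and the endothelin receptor Ednrb was at 814, 1678 and 1149 and 598, 792 and 791 (-0.69, adjusted p = 0.0657). The median of these 8 was -0.37, with 7 below 0. They summed to 3899 to 5051 in CCl4 mice and 3223 to 3470 in CCl4 + EV mice. Under oil the sums were 4294 to 4753.5 without EV and 3294 to 3917 with EV. None of 12 lymphocyte and neutrophil markers passed (limma; 0 at an unadjusted p under 0.05; 0 by edgeR and DESeq2).

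The membrane-binding protein Anxa2 and its partner S100a10, which join in a heterotetramer at the plasma membrane, both fell, from different positions. Anxa2 had been induced, with 444, 373 and 419 in oil mice, 862, 1042 and 926 in CCl4 mice and 396, 454 and 516 in CCl4 + EV mice (log2 fold change -1.05, standard error 0.23, limma adjusted p = 0.0125, and 0.0615 without CCl4 replicate 2). S100a10 had been suppressed, with 3373, 3065 and 3310.4, 2443, 2481 and 2203 and 1798, 1932 and 1387 (log2 fold change -0.49, standard error 0.13, limma adjusted p = 0.0355, and 0.201 without CCl4 + EV replicate 3). With EV, Anxa2 overlapped the oil mice and S100a10 was below them all. Of 69 genes of the actin cytoskeleton, adhesion, annexins and S100 proteins these 2 fell and 2 rose, and the median was -0.14.

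Of the 2 rises in that list, Arhgef40 and Arhgef10l are both guanine nucleotide exchange factors, and both had been induced by CCl4. Arhgef40 was at 458, 422 and 484 with CCl4 and 605, 631 and 641 with CCl4 + EV (log2 fold change 0.46, standard error 0.12, limma adjusted p = 0.0335, and 0.137 without CCl4 replicate 2). Arhgef10l was at 741, 853 and 834 and 1063, 1173 and 1247 (log2 fold change 0.52, standard error 0.13, limma adjusted p = 0.0251, and 0.126 without CCl4 + EV replicate 3). All CCl4 + EV mice lay above all mice of the oil and CCl4 groups in both genes. Cavin2, a coat protein of caveolae, fell from 402, 445 and 461 to 308, 282 and 293 (log2 fold change -0.56, standard error 0.14, limma adjusted p = 0.0215, and 0.0855 without CCl4 + EV replicate 2), and it was the one gene of the 66 that also passed in oil + EV against oil (-0.73, adjusted p = 0.0491). Cavin1, another caveolar coat protein, was at 189, 213 and 206 and 209.8, 175 and 189.6 (-0.08, adjusted p = 0.887).

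Genes of central metabolism that fell came from several pathways. Psat1, an enzyme of serine synthesis, was the only one past the threshold in a list of 31 amino acid, one-carbon and glucose genes, which does not hold Idh2, Gbe1 or Pdhb. It was at 50.6, 52.2 and 52.6 in CCl4 mice and 21.4, 28.2 and 17.2 in CCl4 + EV mice (log2 fold change -1.21, standard error 0.33, limma adjusted p = 0.0428, and 0.192 without CCl4 + EV replicate 3). Slc16a7, a monocarboxylate transporter, was at 1286, 1486 and 1114 and 672, 736 and 691, with CCl4 + EV mice overlapping the oil mice at 959.7, 803 and 712 (log2 fold change -0.88, standard error 0.14, limma adjusted p = 0.0013). Idh2, the mitochondrial isocitrate dehydrogenase that makes NADPH, went from 2029 ± 104 to 1287 ± 131 and was at 1355 ± 15.9 with oil (-0.66, adjusted p = 0.0337, and 0.133 without CCl4 + EV replicate 1). These 3 had been induced by CCl4.

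Gbe1 and Pdhb had been suppressed by CCl4 and fell further. The glycogen branching enzyme Gbe1 went from 4876 ± 323 with oil to 3321 ± 461 with CCl4 and 2248 ± 423 with CCl4 + EV (-0.57, adjusted p = 0.0267, and 0.15 without CCl4 + EV replicate 3). Pdhb, a subunit of pyruvate dehydrogenase, went from 3841 ± 599 to 2783 ± 416 and 1973 ± 63.4 (-0.49, adjusted p = 0.0429, and 0.213 without CCl4 replicate 1). In oil + EV against oil Gbe1 changed by -0.23 and Pdhb by -0.48, neither past the threshold. The difference between the EV effects on Pdhb was -0.005. Of 182 ribosomal and respiratory genes, nearly all suppressed by CCl4, none passed in limma. At an unadjusted p under 0.05 it was 8, with 0 by edgeR and 1 higher by DESeq2. Of the 182, 158 had a log2 fold change below 0. The median of the list was -0.15, beside -0.04 over all genes outside the 4 lists.

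Several falls concerned protein modification, transport and stress. Selenoh, a nucleolar selenoprotein, was at 194, 227 and 176 with CCl4 and 75.7, 86.2 and 76 with CCl4 + EV, and all 3 of the latter were below the oil mice at 113, 102 and 112 (log2 fold change -1.31, standard error 0.22, limma adjusted p = 0.00197). Sae1, a subunit of the enzyme that activates SUMO, was at 659.9, 683 and 630.3 and 407, 469 and 451, with oil mice at 488, 519.5 and 424 (log2 fold change -0.57, standard error 0.12, limma adjusted p = 0.00987). Klhl13, an adaptor of cullin ubiquitin ligases, went from 322 ± 38.8 to 177 ± 25.8 (-0.86, adjusted p = 0.0257, and 0.109 without CCl4 replicate 1). Sae1 and Klhl13 were the 2 falls in limma among 84 listed ubiquitin system and proteasome genes (7 at an unadjusted p under 0.05; 2 lower by edgeR and 5 by DESeq2), a list that does not hold Neurl1b. Clint1, an adaptor of clathrin-coated vesicles, went from 2222 ± 87.6 to 1603 ± 174 (-0.48, adjusted p = 0.0193, and 0.123 without CCl4 + EV replicate 3). Plk2, a kinase induced by stress and p53, was at 725, 1079 and 779 and 473, 525 and 429.8 (log2 fold change -0.84, standard error 0.18, limma adjusted p = 0.0101, and 0.059 without CCl4 replicate 2), and in limma it was the one fall among 22 immediate early, stress and p53 genes, against 3 by edgeR, 5 by DESeq2 and 2 with the block in all 15 libraries. In that list Mdm2, the ubiquitin ligase of p53, was at 1153, 1284 and 1342 and 911, 1051 and 1028 (-0.34, adjusted p = 0.103). The lipid transporter gene Abca9 went from 429.8 ± 10.9 to 303 ± 20.5 (-0.51, adjusted p = 0.0286, and 0.132 without CCl4 + EV replicate 2; 0.0501 with the block in the 6 libraries), and Ccdc18, a coiled-coil protein, from 95.5 ± 25.6 to 26.7 ± 2.95 (-1.77, adjusted p = 0.0119, and 0.0679 without CCl4 replicate 2).

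Among the 50 falls 9 are not annotated as protein coding, and none of these passed in all 6 fits that left out 1 mouse. Gm1966, an unprocessed pseudogene, had the largest fall (-4.67, adjusted p = 0.031, and 0.149 without CCl4 replicate 2). Its single values spread widely, since CCl4 mice held 134, 227 and 7.8, CCl4 + EV mice 2.5, 1.6 and 0.8, and untreated mice held 0, 49 and 10.1. The mice of both oil groups were all at 0. The noncoding RNA Gm13056 was at 16.3, 20 and 19.5 in CCl4 mice and 5.8, 3.9 and 2.5 in CCl4 + EV mice (-2.0, adjusted p = 0.00963, and 0.0588 without CCl4 + EV replicate 3). 2700099C18Rik was at 26.1, 46.1 and 41.9 and 20.6, 3.9 and 4.1 (-2.22, adjusted p just under the threshold, and 0.213 without CCl4 + EV replicate 3). The processed pseudogenes Gm8337, Gm7232 and Gm8355, whose reads may be shared with the genes they copy, and the transcript Gm16731 had been suppressed by CCl4 and fell further. Their means went from 31.9 to 11 in Gm8337, 18.9 to 6.7 in Gm7232, 71.2 to 35.3 in Gm8355 and 88.7 to 35.8 in Gm16731. With the block in the 6 libraries Gm8337, Gm7232, Gm8355, Gm11844 and 2700099C18Rik did not pass (adjusted p = 0.0589, 0.075, 0.0849, 0.151 and 0.0951).

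**Figure D4:**
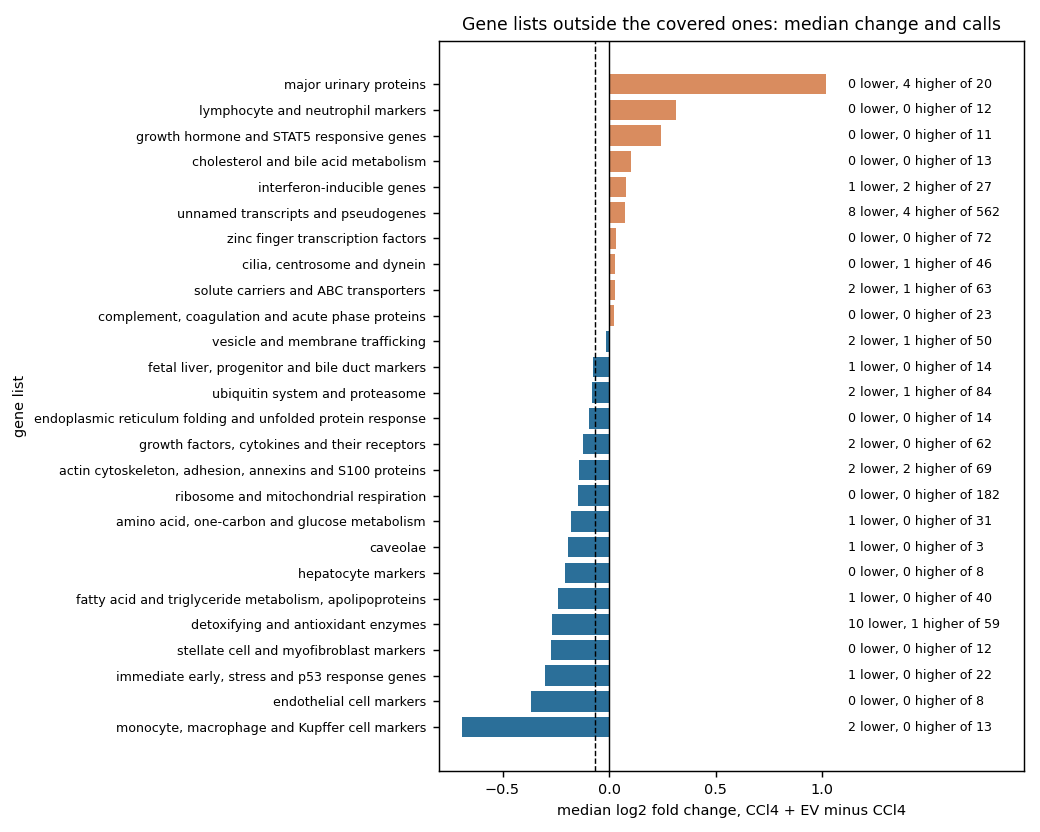
Gene lists outside the 4, ordered by the median log2 fold change of CCl4 + EV against CCl4 over their members in the table. Bars give the median, the dashed line the median of all genes of the table, and the text how many members were lower or higher at an adjusted p under 0.05. Detoxifying enzymes hold the most falls (10 of 59) among the lists of named genes, and major urinary proteins the most rises (4 of 20). Over all genes outside the 4 lists 1.59% fell and 0.51% rose.

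The rises were led by genes that CCl4 had suppressed. Slc1a2, the glutamate transporter of hepatocytes around the central vein, was at 1814, 1872 and 1994 in oil mice, 111, 183 and 92.6 in CCl4 mice and 329.9, 305 and 632 in CCl4 + EV mice. The groups did not overlap, replicate 3 of CCl4 + EV was the highest of its group, and the mean rose 3.28-fold while staying below oil (log2 fold change 1.69, standard error 0.26, limma adjusted p = 0.0013). Of 63 solute carriers and ABC transporters it was the only rise, beside the falls of Slc16a7 and Abca9, and the median of that list was 0.03.

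Major urinary proteins, lipocalins that male hepatocytes secrete to carry pheromones, were all suppressed by CCl4, and 4 of the 20 in the table rose and none fell, with a median of 1.02. Mup-ps12, an unprocessed pseudogene of the family, was at 8.2, 15.4 and 3.9 with CCl4 and 59.2, 34.5 and 40 with CCl4 + EV (log2 fold change 2.30, standard error 0.43, limma adjusted p = 0.00451). Mup18 was at 767, 362 and 395 and 1723, 2183 and 2026 (log2 fold change 2.04, standard error 0.49, limma adjusted p = 0.0225, and 0.0921 without CCl4 replicate 2), and its oil mice spread from 3013 to 14787. Mup1 was at 387, 425 and 309 and 1095, 1137 and 686 (log2 fold change 1.35, standard error 0.37, limma adjusted p = 0.0391, and 0.15 without CCl4 + EV replicate 2). Mup14 was at 8576, 7254 and 8841 and 22295, 19591 and 16632 (log2 fold change 1.24, standard error 0.34, limma adjusted p = 0.0428, and 0.136 without CCl4 + EV replicate 1). With the replicate block its limma adjusted p was 0.0555 in all 15 libraries and 0.00481 in the 6 compared ones. These genes lie in 1 cluster on chromosome 4 and are closely related in sequence, so that their reads may be split among copies.

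Mup20 and Mup17, abundant members of the family, did not pass. Mup20 was at 90445, 77314 and 97822 in CCl4 mice and 162955, 149354 and 113015 in CCl4 + EV mice, groups that did not overlap (0.67, adjusted p = 0.259). Mup17 was at 64039.7, 1483 and 55.5 in CCl4 mice and 5483, 4002 and 10946 in CCl4 + EV mice. The CCl4 + EV mice lay inside the range of the CCl4 mice (1.83, adjusted p = 0.666), and the sign of the change turned in edgeR and DESeq2 and without CCl4 replicate 3. None of 11 growth hormone and STAT5 responsive genes passed in limma (1 at an unadjusted p under 0.05; 0 by edgeR and DESeq2), and their median was 0.24.

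Of 27 interferon-inducible genes outside the 4 lists, Herc6 and Ifi47 rose and the pseudogene Gm1966 fell, and the median was 0.08. The shares over all genes outside the 4 lists were 0.51% higher and 1.59% lower. Herc6, which in the mouse attaches the ubiquitin-like protein ISG15, was at 389, 431 and 369 with CCl4, 515, 612 and 567 with CCl4 + EV and 539.5, 498 and 533 in oil mice (log2 fold change 0.51, standard error 0.12, limma adjusted p = 0.0244, and 0.115 without CCl4 + EV replicate 2). Ifi47, an interferon-induced GTPase, was at 558, 631 and 466, 847, 1203 and 1043 and 1082, 1223 and 1202 (log2 fold change 0.90, standard error 0.25, limma adjusted p = 0.0437, and 0.178 without CCl4 + EV replicate 2). With the replicate block the limma adjusted p of Ifi47 was 0.0656 in all 15 libraries and 0.0125 in the 6 compared ones. In both genes the CCl4 + EV mice overlapped the oil mice. Igtp, a GTPase of the same family as Ifi47, was at 871, 894 and 798 and 1006, 1005 and 1234, values that did not overlap, and did not pass (0.34, adjusted p = 0.411).

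The remaining rises are unrelated to each other by list. Rab11fip4, an effector of the recycling endosome GTPase Rab11, was at 57.2, 186 and 139 in CCl4 mice and 359.5, 287 and 372 in CCl4 + EV mice, the highest values of any group (log2 fold change 1.55, standard error 0.41, limma adjusted p = 0.0355, 0.176 without CCl4 replicate 1 and 0.0629 with the block in the 6 libraries). Mb21d2 was at 417, 471 and 408 with CCl4 and 588, 595 and 737 with CCl4 + EV, overlapping the oil mice at 594, 680.3 and 637 (log2 fold change 0.56, standard error 0.12, limma adjusted p = 0.0116, 0.0793 without CCl4 + EV replicate 3 and 0.0571 with that block). Arsg, a lysosomal sulfatase, was at 1025, 806 and 1009 and 1258, 1642 and 1474 beside its falling neighbour Abca9, 527419 bases away on chromosome 11 (log2 fold change 0.62, standard error 0.17, limma adjusted p = 0.0357, 0.162 without CCl4 + EV replicate 2 and 0.0649 with that block). Dnaic1, a dynein chain of motile cilia, was at 62.1, 64.5 and 72.1 and 115, 278 and 149 (log2 fold change 1.34, standard error 0.34, limma adjusted p = 0.03, and 0.16 without CCl4 + EV replicate 2), and it was the only call among 46 genes of cilia, centrosome and dynein.

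The other 3 rises are transcripts without a known protein. Gm10319, a transcribed pseudogene, was at 1289, 1128 and 1184 in CCl4 mice and 2117, 2627 and 2059.9 in CCl4 + EV mice, above all oil mice at 1749.5, 1666 and 1688 (log2 fold change 0.91, standard error 0.18, limma adjusted p = 0.00567). Adh6-ps1 was at 80, 75.2 and 60.4 and 167, 192 and 189, and all CCl4 + EV mice were below the oil mice (log2 fold change 1.34, standard error 0.29, limma adjusted p = 0.0114, and 0.0506 without CCl4 + EV replicate 3). E230016M11Rik was at 53.9, 55.3 and 49.7 and 160.4, 125 and 84.2 (log2 fold change 1.16, standard error 0.30, limma adjusted p = 0.0337, and 0.156 without CCl4 + EV replicate 1). In E230016M11Rik the oil + EV mice, at 64.4, 48.9 and 93, were above the oil mice at 32.7, 22.8 and 22.6 as well (1.34, adjusted p = 0.076).

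In uninjured liver nearly none of these genes passed. In oil + EV against oil 8 genes of the table passed (0.228%), 6 of them outside the 4 lists, and 1 of the 66 was among them. Of the 50 falls, 37 had a negative log2 fold change under oil, with a median of -0.23, and of the 16 rises 5 did, with a median of 0.09. The difference between the EV effects under CCl4 and under oil was tested directly, and 69 genes of the table (1.97%) passed, 10 of them outside the lists. Of the 66 genes 7 passed this test, namely Afp, Lockd, Neurl1b, Ptgr1, Papss2, Kpna2 and Mup-ps12. At an unadjusted p under 0.05 it was 34 of the 50 falls and 10 of the 16 rises. The 66 genes were chosen by a call on the EV effect under CCl4, and that effect is part of this difference. Counts among the 66 are therefore partly fixed by that choice. For the genes other than the 7 no difference between injured and uninjured liver was called. Some of these had nearly equal effects in both, as Pdhb, with a difference of -0.005, and Cavin2, with 0.17.

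**Figure D5:**
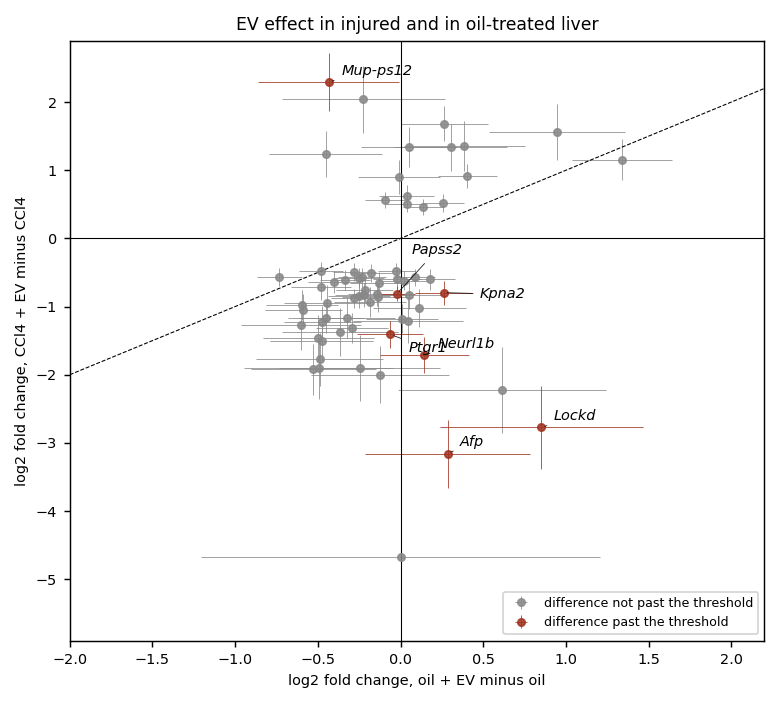
Change with EV in CCl4-treated liver (vertical) against that in oil-treated liver (horizontal) for the 66 genes, as log2 fold changes with standard errors. The dashed line marks equal changes. The 7 named genes in red are those whose difference between the 2 settings passed the threshold. Mup-ps12 lies above the line and the other 6 lie below it.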

How the data were processed

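RNA of whole liver was depleted of ribosomal RNA and sequenced from stranded libraries with molecular identifiers, whose use is not stated. The authors aligned reads with STAR to GRCm38.p3 and counted them with featureCounts on Gencode M19. Whether counting used strand is not given in the sources used here. The deposited signal values are counts divided by a size factor per library, to 1 decimal, and 100% came back to whole reads within 0.05. The deposited table also holds the authors' comparison of CCl4 with oil from DESeq2 (a mean signal, log2 fold changes and their errors, a Wald score, raw and adjusted p-values), which was not used.

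Genes were tested with limma 3.58.1 in R 4.3.3 on log2(normalized count + 1) of all 15 libraries, with a mean-variance trend, two-sided, adjusted by Benjamini-Hochberg over all genes of the table, called under 0.05, without a low-value filter or block. Fold changes are on this scale, where a larger pseudocount pulls those of low genes towards 0. Alternatives were pseudocounts of 0.5 and 5, a mean of at least 10, no trend, a robust prior, only the 6 compared libraries, averaged oil replicates 2 and 3, which were unusually alike, the replicate block, edgeR 4.0.16 with 2 normalizations, DESeq2 1.42.0, and each of the 6 mice left out. The fit was tested on simulated data. Replicate numbers carry no stated meaning; same-numbered CCl4 and CCl4 + EV mice deviated together (correlations 0.23, 0.175 and 0.169), same-numbered oil and oil + EV mice did not (0.06, -0.06 and 0.04).

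The members and lists were chosen with earlier results of these data known, and the groups of genes by role were formed after their values were seen. Named genes were called genes outside the 4 lists with groups that do not overlap and a mean of at least 10 in the higher group (the 20 largest falls and rises), called list members, and up to 4 members per list of highest mean. Capn6, Igsf10, Dkk3, Papss2, Kpna2, Idh2, Dhrs7, Mpp1, Gbe1, Pdhb, Sult1b1, Sult1c2, Gpnmb and Acp5 fall outside this rule and were named after their values were seen. Of 66 genes 48 had a RefSeq promoter. Of the 66 genes 1 enters the counts but is not reported here by name. Gene types and names follow GENCODE M21 on GRCm38. That the replicates are separate mice is taken from the study's methods.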

Additional observations from a re-analysis of the deposited data

Results flagged for a closer look

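For 7 of the genes the effect of EV under CCl4 differed from that under oil by the test of the difference itself (limma, 15 libraries, adjusted over all genes of the table). The difference of the log2 fold changes was -3.44 for Afp (adjusted p = 0.0206), -3.63 for Lockd (0.0435), -1.85 for Neurl1b (0.0206) and -1.06 for Kpna2 (0.039). It was -1.35 for Ptgr1 (0.0228), -0.79 for Papss2 (0.0177) and 2.73 for Mup-ps12 (0.0294). In oil mice the same genes changed with EV by 0.28, 0.85, 0.14, 0.26, -0.06, -0.02 and -0.43 on the log2 scale, none past the threshold. In all 7 the 3 CCl4 + EV mice lay on one side of the 3 CCl4 mice, which the choice by calls on these mice nearly fixes. That choice also enters the test of the difference, which holds the EV effect under CCl4. Of all genes of the table, 20% were lower and 8% higher without overlap. Groups of 3 mice are too small for a test of single outlying samples.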

How the results depend on the processing

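No direction of the 66 genes turned under any of the 18 alternatives; 912 of their results under these kept the call and 276 lost it. Genes higher in all numbered 42 with only the 6 compared libraries, 40 with the replicate block in them and 40 by DESeq2, against 18. Outside the 4 lists the falls were 78, 88 and 90 and the rises 41, 37 and 38 under the same 3, and edgeR with TMM gave 25 rises. The replicate block in all 15 libraries gave 62 falls and 17 rises and ended the calls of Ifi47 and Mup14 only. The difference between EV effects was called in 114 genes with a pseudocount of 5, 33 with oil replicates 2 and 3 averaged, 111 by edgeR with TMM and 134 by DESeq2, against 69, and the fits of 6 libraries give no such difference. Leaving out 1 mouse gave 86 to 137 lower and 7 to 14 higher genes, 15 to 38 falls and 5 to 13 rises outside the lists, and 20 to 76 differences. Mup17, which did not pass, was at -1.68 by edgeR and DESeq2, -1.60 by edgeR with TMM and -0.65 without CCl4 replicate 3, against 1.83, and at 4.42 without CCl4 replicate 1, where it passed (adjusted p = 0.0305). The causes were not tested. The 3 mice a group and low counts in the noncoding genes limit what could be detected.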
